A study of Mus musculus with 6 samples.

Results

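The AMPA receptors are the ionotropic glutamate receptors that carry most fast excitatory transmission in the brain. The genes described here are the 4 pore-forming subunit genes Gria1, Gria2, Gria3 and Gria4 and 6 genes of auxiliary subunits, which were taken by symbol. The auxiliary genes are Cacng2, Cacng3 and Cacng8 for transmembrane AMPA receptor regulatory proteins (TARPs), Cnih2 and Cnih3 for cornichons, and Gsg1l. All 10 were found among the 24062 symbols listed, and all 10 were among the 14058 genes that passed the filter on low counts.

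RNA came from the ventral dentate gyrus of male mice of the strain labelled C57black 6. 3 libraries came from mice labelled as not stressed and 3 from mice given chronic restraint stress, with no other treatment or genotype named. The replicates are labelled biological, and the number of animals behind each is not stated, so p-values measure the spread between these libraries, which may be technical. The age of the mice and the length of the stress are not given in the labels used here.

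A receptor is built from 4 subunits, and its mixture of subunits sets how it conducts and how it is moved to synapses. Receptors that contain the edited GluA2 subunit, from Gria2, pass little calcium, and those with GluA1, from Gria1, are known for their delivery to synapses in plasticity. TARPs and cornichons bind the receptor and slow its closing, and TARPs also tie it to the postsynaptic scaffold. The cornichon CNIH2 and the TARP gamma-8, from Cacng8, are known as prominent partners in the hippocampus. GSG1L, in contrast, is known to weaken the receptor's currents.

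The residue that separates GluA2 from the other subunits lies at the Q/R site in the pore, where RNA editing recodes a glutamine codon of Gria2. The coding stretches around that codon are shown because they show what the counts below can and cannot tell apart. Each is read 5′ to 3′ on the coding strand from GENCODE M21 transcripts on GRCm38, with 24 bases on each side of the codon and the codon in capitals.
Gria1: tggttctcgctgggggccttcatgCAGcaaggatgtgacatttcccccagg
Gria2: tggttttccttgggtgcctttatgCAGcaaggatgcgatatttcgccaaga
Gria3: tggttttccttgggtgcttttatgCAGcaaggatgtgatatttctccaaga
Gria4: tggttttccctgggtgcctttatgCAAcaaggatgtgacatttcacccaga
Gria1 matched Gria2 at 41 of the 51 bases, Gria3 at 48 and Gria4 at 45. The genome carries the same codon in Gria1, Gria2 and Gria3, and another glutamine codon in Gria4. The codon lies at chr3:80706911-80706913 on the minus strand in exon 11 of 16 of Gria2, and at chr11:57243094-57243096 on the plus strand in exon 11 of 16 of Gria1. In Gria3 it lies at chrX:41610265-41610267 on the plus strand in exon 11 of 16, and in Gria4 at chr9:4464137-4464139 on the minus strand in exon 12 of 17. Counts per gene do not record edited bases or the alternative flip and flop exons, so the values below are of all transcripts of a gene. The longest exact stretch shared by transcripts of any 2 of the 10 genes was 59 bases, between Gria3 and Gria4, which is shorter than the 100 bases of a read.

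Libraries held 8305753 to 10107953 gene counts. Dentate granule neuron markers were present in every library, with Prox1 at 92.3 to 133 CPM in controls and 48.4, 122 and 127 CPM in stress replicates 1, 2 and 3. CPM, the unit of level used throughout, is a gene's counts relative to the library's total, with the totals scaled by TMM. Stress replicate 1 stood apart from the rest. All 8 choroid plexus markers and all 7 striatal markers were highest in it, with summed levels of 4755 and 941 CPM against 22.9 to 31.2 and 191 to 212 CPM in the other 5 libraries, while its 6 granule neuron markers summed to 484 CPM against 741 to 1011. All 7 oligodendrocyte markers were highest in it too, at 4676 CPM in sum against 1990 to 3099. Where leaving out this library changed a call or moved a value by over 1.5 times, both values are given.

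None of the 10 genes passed the test between stress and control, with adjusted p-values from 0.220 to 0.924 by edgeR's quasi-likelihood test. That test called 4 of the 14058 genes, or 0.0285%, all lower in stress. 3 of the 10 (Gria1, Cacng8 and Cnih2) were higher and 2 (Gria4 and Gsg1l) lower at an unadjusted p under 0.05, where 3.86% of all tested genes were higher, 4.85% lower and 8.71% either. DESeq2, which called 0.248% of its tested genes higher and 0.443% lower, 0.691% in all, called Gria1 and Cnih2 higher and Gria4 lower. With stress replicate 1 left out DESeq2 called 0.519% higher, 0.637% lower and 1.16% in all, and among them Gria1, Cacng8, Cnih2 and Cnih3 as higher and Gria4 as lower. Control and stress libraries were fully separated for 5 of the 10 genes, against 14.6% of all tested genes. Gria1, Gria2, Cacng8 and Cnih2 were higher in each stress library than in any control, as were 6.76% of tested genes, and Gria4 was lower, as were 7.84%. The median log2 fold change of the 10 genes was 0.095, against 0.0038 over all tested genes. Without stress replicate 3 the median of the 10 was -0.048.

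**Figure D1:**
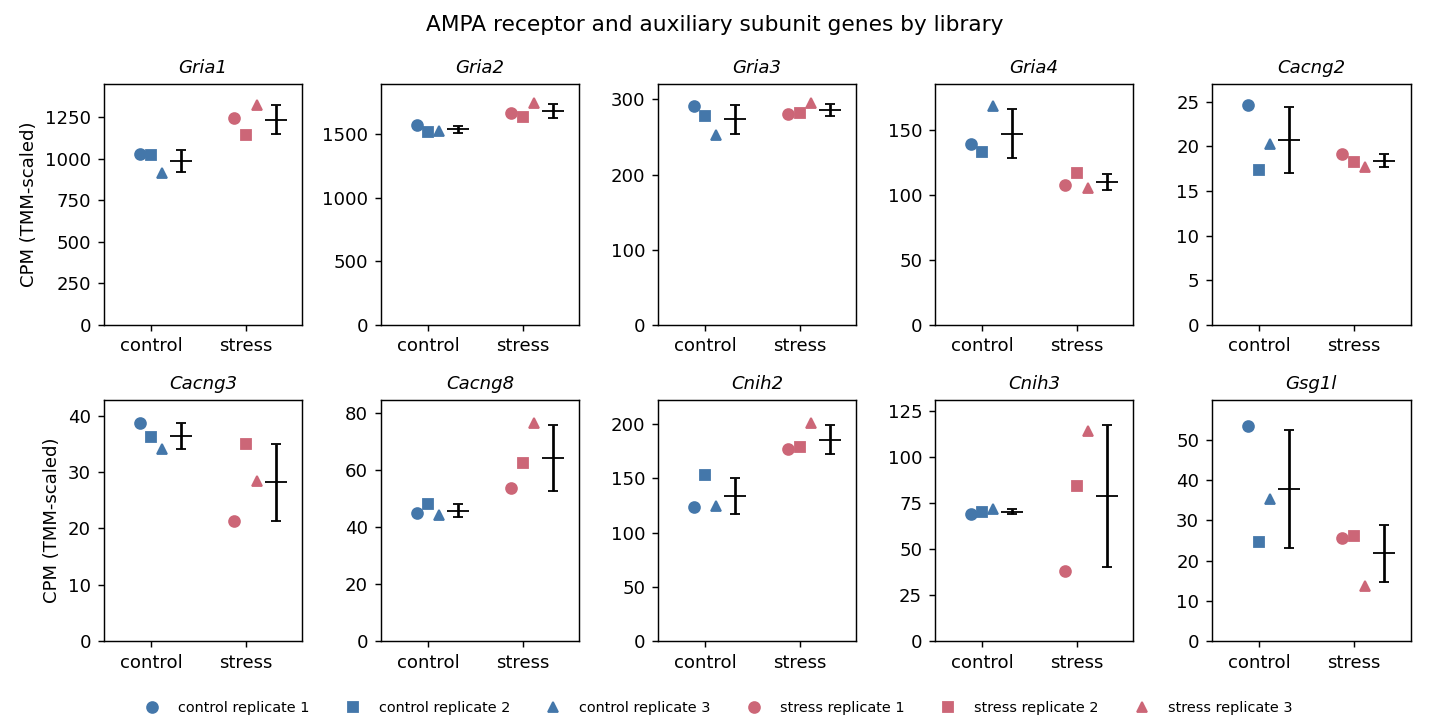
Level of each of the 10 genes in every library, in CPM on a linear axis from 0. Each point is 1 library and the bar beside each group is the mean with its SD (n = 3). The stress points of Gria1, Gria2, Cacng8 and Cnih2 lie above every control point and those of Gria4 below, while Cnih3 is spread from 37.9 to 114 CPM in stress.

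Gria1, on chromosome 11 from 57011387 to 57330244, was measured at 1030, 1020 and 912 CPM in control replicates 1, 2 and 3 and at 1243, 1145 and 1321 CPM in stress replicates 1, 2 and 3. Every stress library lay above every control, and stress replicate 3 was the highest. Mean levels in control and stress were 987 ± 65.3 and 1236 ± 88.2 CPM (SD, n = 3), and the log2 fold change was 0.32 (SE 0.078). The adjusted p was 0.306 by edgeR's quasi-likelihood test and 0.0358 by DESeq2. The value did not rest on stress replicate 1, since the log2 fold change without it was also 0.32.

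Gria2, on chromosome 3 from 80681450 to 80802835, was the steadiest of the subunit genes among controls. It was at 1572, 1520 and 1526 CPM in control replicates 1, 2 and 3 and at 1668, 1635 and 1745 CPM in stress replicates 1, 2 and 3. The groups did not overlap, but the gap between them was small. The log2 fold change was 0.13 (SE 0.058), at an adjusted p of 0.632 by edgeR's quasi-likelihood test. Its coefficient of variation was 1.83% in controls and 3.36% in stress, where counting alone gives 0.821%.

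Gria3, whose product GluA3 commonly pairs with GluA2, lies on chromosome X from 41400854 to 41678601. It was at 291, 277 and 253 CPM in control replicates 1, 2 and 3 and at 280.5, 281 and 295 CPM in stress replicates 1, 2 and 3. The groups overlapped, and control replicate 3 was the lowest of the 6 libraries. Its log2 fold change of 0.061 (SE 0.071) was smaller than its SE. It was 0.013 without control replicate 3 and 0.11 without control replicate 1.

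Gria4, whose product GluA4 is known from fast-spiking interneurons and thalamic neurons, lies on chromosome 9 from 4417896 to 4796234. It was the subunit gene that was lower in stress, at 139, 133 and 169 CPM in control replicates 1, 2 and 3 and 107, 117 and 105 CPM in stress replicates 1, 2 and 3. All stress libraries lay below all controls, and control replicate 3 stood highest. Controls averaged 147 ± 18.9 CPM and stress libraries 109.7 ± 5.98 CPM (SD, n = 3), and the log2 fold change was -0.42 (SE 0.098). The adjusted p was 0.260 by edgeR's quasi-likelihood test and 0.0458 by DESeq2. The log2 fold change ranged from -0.49 without control replicate 2 to -0.31 without control replicate 3.

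Marker levels of cell types that may carry Gria4 are given beside it. The 8 interneuron markers summed to 664 to 735 CPM in controls and 671 to 697 CPM in stress. Within this list the directions differed. Pvalb fell below its lowest control in every stress library, with 20.3 to 23.95 CPM against 24.57 to 27.9 CPM. Gad1 did so too, with 292 to 325 CPM against 344 to 378 CPM. Npy went the other way, with 22.1 to 27.4 CPM under stress against 16.3 to 18.9 CPM. For the other interneuron markers the groups overlapped. The 5 thalamus and habenula markers summed to 245 to 281 CPM in controls and 134 to 175 CPM in stress, so these groups did not overlap. Most of that sum came from Slc17a6 and Rora. Both were lower in every stress library than in any control, as were Tcf7l2 and Lef1. Prkcd overlapped, and was highest in stress replicate 1 at 20.9 CPM against 13.4 to 16.7 CPM in controls. The 7 astrocyte markers summed to 926 to 1102 CPM in controls and 900 to 911 CPM in stress, also without overlap. All markers of these lists had counts in every library, and the part of these cells in the Gria4 result was not tested. In tissue RNA, fewer cells of a type and less RNA per cell cannot be told apart.

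**Figure D2:**
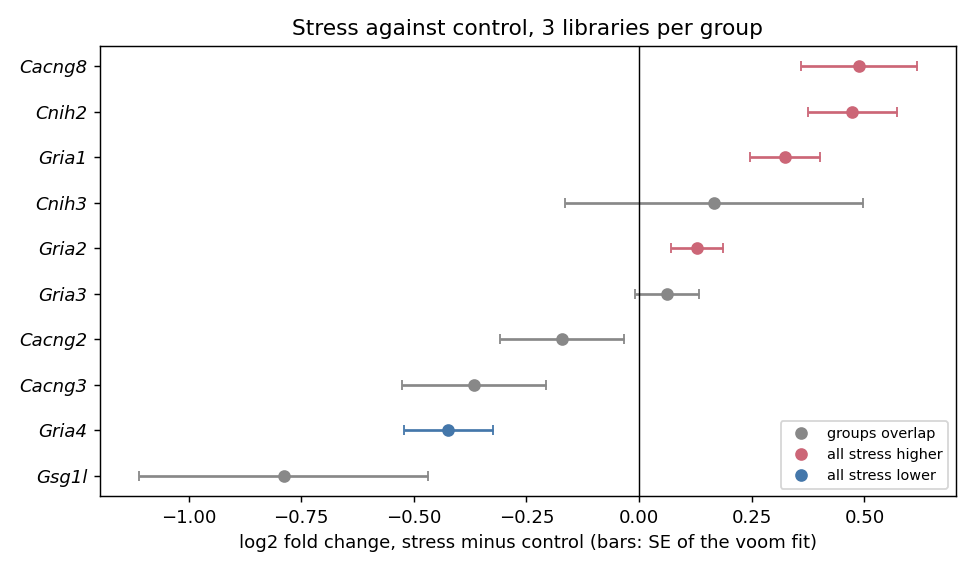
Log2 fold change of stress against control for the 10 genes from edgeR's quasi-likelihood fit of 3 libraries per group, with bars of 1 SE from the voom fit, in order of size. Colour marks whether the 3 stress libraries all lay above, all lay below or overlapped the 3 controls, and the values run from -0.79 for Gsg1l to 0.49 for Cacng8.

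The composition of the 4 subunit transcripts does not depend on how libraries are scaled. With counts divided by the merged exon length of each gene, Gria1 made up 52.7%, 53.4% and 50.1% of the sum of the 4 in control replicates 1, 2 and 3. Its share was 57.4%, 55.5% and 57.9% in stress replicates 1, 2 and 3. The share of Gria4 was 6.84%, 6.69% and 8.87% in the controls and 4.75%, 5.41% and 4.42% in stress. Neither share overlapped between the groups.

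Mean shares of Gria1 in control and stress were 52.1% ± 1.78 and 56.9% ± 1.29 (SD, n = 3), a difference of 4.83 percentage points. Gria2 went from 31.6% ± 0.842 to 30.1% ± 0.551, Gria3 from 8.85% ± 0.316 to 8.07% ± 0.243 and Gria4 from 7.47% ± 1.22 to 4.86% ± 0.502. The shares sum to a fixed total, so these are not independent of each other, and they were not tested. Divided by coding length, the shares in controls were 32.9% for Gria1 and 52.8% for Gria2. Which of Gria1 and Gria2 was the more abundant transcript therefore depended on the length used, while the direction of each difference between the groups did not. With coding length or with no length scaling, the groups overlapped for Gria3.

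**Figure D3:**
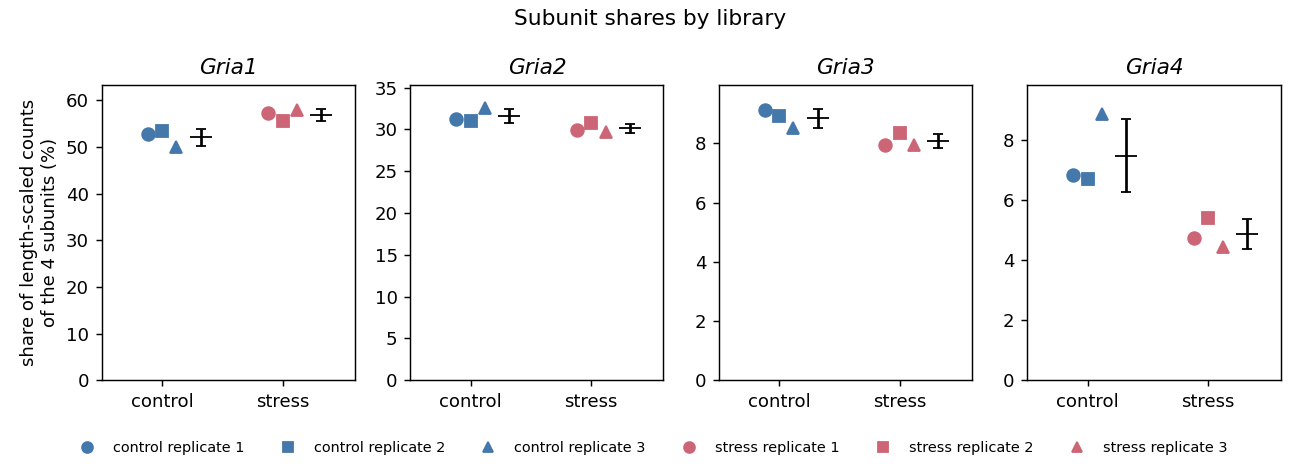
Share of each subunit gene in the summed counts of Gria1 to Gria4, divided by merged exon length, in percent on linear axes from 0. Each point is 1 library and the bar is the mean with its SD (n = 3). The share of Gria1 is between 55.5% and 57.9% in stress and between 50.1% and 53.4% in controls, and the share of Gria4 is lower in every stress library.

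Ratios of raw counts within a library need no scaling or length. The ratio of Gria1 to Gria2 counts was 0.656, 0.671 and 0.598 in control replicates 1, 2 and 3 and 0.745, 0.701 and 0.757 in stress replicates 1, 2 and 3. The ratio of Gria1 to Gria4 counts was 6.82 ± 1.23 in controls and 11.3 ± 1.38 in stress (SD, n = 3), with no overlap. Ratios of Gria2 to Gria4 and of Cacng8 to Cacng2 did not overlap either. The ratios of Cacng8 to Gria1, of Cnih2 to Gria1 and of Cnih2 to Cnih3 overlapped between the groups. The summed level of Gria1 to Gria4 was 2860 to 3032 CPM in controls and 3177 to 3467 CPM in stress. Sums of the TARP members, of the cornichon members and of the 6 auxiliary members overlapped between the groups.

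Among Cacng2, Cacng3 and Cacng8, Cacng8 was the gene that was higher in stress. It encodes TARP gamma-8 and lies on chromosome 7 from 3390683 to 3415648. It was at 45.0, 48.3 and 44.1 CPM in control replicates 1, 2 and 3 and at 53.7, 62.3 and 76.6 CPM in stress replicates 1, 2 and 3. The controls lay close together, and the stress libraries lay above all of them and were spread more widely. Controls averaged 45.8 ± 2.20 CPM and stress libraries 64.2 ± 11.5 CPM (SD, n = 3). The log2 fold change was 0.49 (SE 0.13), and its adjusted p was 0.318 by edgeR's quasi-likelihood test and 0.102 by DESeq2. Leaving out stress replicate 1 gave 0.60 (SE 0.10), which passed at an adjusted p of 0.0400 in an edgeR fit that called 0.0775% of its tested genes higher and 0.211% lower, 0.289% in all. Without stress replicate 3 it was 0.35.

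Cacng3, for TARP gamma-3, lies on chromosome 7 from 122670492 to 122769393. It was at 38.7, 36.2 and 34.1 CPM in control replicates 1, 2 and 3 and at 21.3, 34.9 and 28.4 CPM in stress replicates 1, 2 and 3. Stress replicate 1 was the lowest and stress replicate 2 lay within the controls. Its log2 fold change of -0.37 (SE 0.16) was -0.20 without stress replicate 1.

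Cacng2 encodes stargazin, the first TARP described, and lies on chromosome 15 from 77991748 to 78120028. It was at 24.7, 17.3 and 20.3 CPM in control replicates 1, 2 and 3 and at 19.2, 18.2 and 17.7 CPM in stress replicates 1, 2 and 3. All stress libraries lay within the range of the controls. An antisense gene that is not listed in the counts, A730060N03Rik, overlaps its exons. With 157 to 204 counts per library, counting alone gives an error of 7.47%. Its log2 fold change of -0.17 (SE 0.14) was -0.031 without control replicate 1, the highest library, and -0.29 without control replicate 2. The ratio of Cacng8 to Cacng3 counts was 1.16, 1.33 and 1.29 in the controls and 2.53, 1.79 and 2.69 in stress, so it did not overlap with or without stress replicate 1.

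Of the cornichons, Cnih2 had the smallest p of the 10 genes. It lies on chromosome 19 from 5092868 to 5098521 and was at 123, 153 and 125 CPM in control replicates 1, 2 and 3 and at 177, 179 and 201 CPM in stress replicates 1, 2 and 3. Every stress library lay above every control, and control replicate 2 was the nearest of the controls. Mean levels were 134 ± 16.7 CPM in controls and 186 ± 13.6 CPM in stress (SD, n = 3), and the log2 fold change was 0.47 (SE 0.099). The adjusted p was 0.220 by edgeR's quasi-likelihood test and 0.00920 by DESeq2. Cnih2 overlaps Yif1a on the opposite strand by 14 exonic bases, and whether counting used strand is not stated.

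Cnih3, on chromosome 1 from 181352628 to 181460641, was even between controls and uneven in stress. It was at 68.9, 70.3 and 71.4 CPM in control replicates 1, 2 and 3 and at 37.9, 84.3 and 114 CPM in stress replicates 1, 2 and 3. Stress replicate 1 lay below all controls and the others above them. With all libraries the log2 fold change was 0.17 (SE 0.33). Leaving out stress replicate 1 gave 0.50 (SE 0.11), with an adjusted p of 0.0807 by edgeR's quasi-likelihood test and 0.0170 by DESeq2. It was -0.20 without stress replicate 3 and 0.12 without stress replicate 2. The coefficient of variation was 1.79% in controls and 48.6% in stress.

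Gsg1l, on chromosome 7 from 125878420 to 126082411, varied most between controls. It was at 53.4, 24.6 and 35.4 CPM in control replicates 1, 2 and 3 and at 25.7, 26.0 and 13.7 CPM in stress replicates 1, 2 and 3. The groups overlapped, since control replicate 2 lay below stress replicates 1 and 2. The log2 fold change of -0.79 (SE 0.32) was the largest in size of the 10 genes, with an adjusted p of 0.534 by edgeR's quasi-likelihood test. It was -0.46 without control replicate 1 and -0.53 without stress replicate 3.

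**Figure D4:**
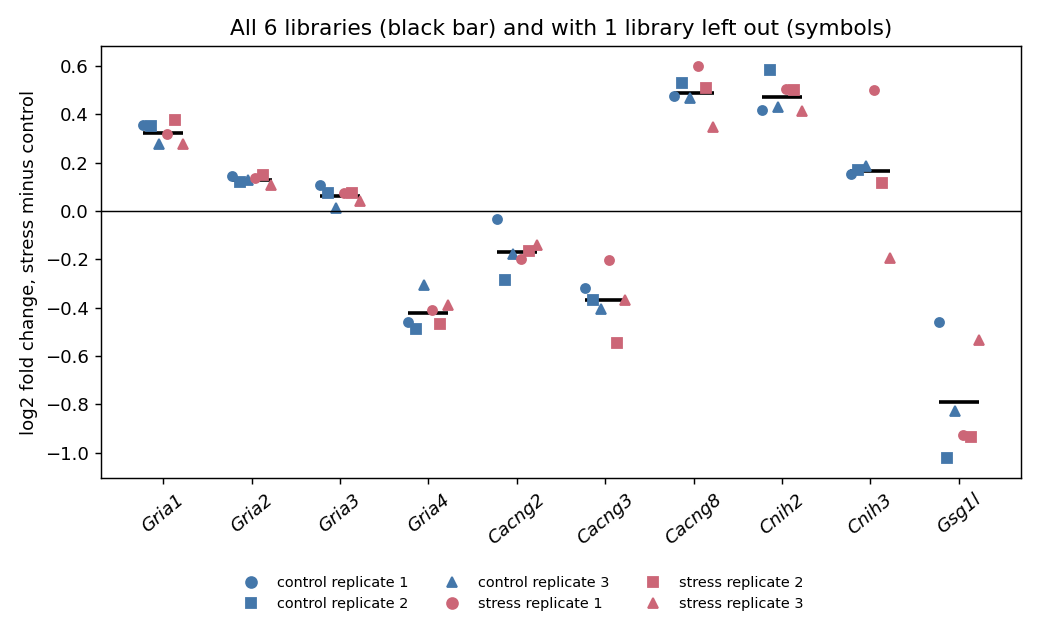
Log2 fold change of stress against control for the 10 genes with all 6 libraries (black bars) and with 1 library left out at a time (symbols, coloured and shaped by the library left out). All genes but Cnih3 stay on one side of 0 throughout, while Cnih3 runs from -0.20 without stress replicate 3 to 0.50 without stress replicate 1.

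Marker levels of hippocampal and neighbouring cells differed between the same libraries. In stress replicate 1, where Cnih3 and Cacng3 were lowest, the 6 granule neuron markers summed to 484 CPM and the 5 neocortical and entorhinal markers to 141 CPM, the lowest of the 6 libraries for both lists. The sum of the 4 mossy cell markers was also lowest there, at 35.4 CPM against 67.2 to 104 CPM in the other libraries. Within this list Calb2 and Csf2rb2 were lowest there and Nmb was not. Calcrl was highest there, at 23.65 CPM. The 6 CA3 pyramidal markers summed to 346 CPM there against 131 to 240 CPM, and 5 of them were highest in that library. The neocortical and entorhinal markers summed to 209 to 224 CPM in controls and 141 to 205 CPM in stress. Of these, Cux2 and Rorb were lower in every stress library than in any control. For Lamp5, Tbr1 and Fezf2 the groups overlapped, and Fezf2 lay above all controls in stress replicates 2 and 3. Markers of CA1 and subiculum summed to 417 to 593 CPM in controls and 396 to 608 CPM in stress. Within that list Fibcd1 was at 19.3, 52.9 and 52.5 CPM in control replicates 1, 2 and 3 and at 72.7, 82.4 and 136 CPM in stress replicates 1, 2 and 3. Like Cacng8 and Cnih2 it was higher in every stress library, and it was named after its values were seen. All markers of these lists had counts in every library, and their part in the results was not tested.

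Levels of different genes can be compared only per length, here as CPM per kilobase of merged exons in controls. Gria1 came first at 163 ± 10.8 (SD, n = 3), followed by Gria2 at 99.0 ± 1.81 and Cnih2 at 97.6 ± 12.2, whose libraries overlapped. Gria3 at 27.8 ± 1.96, Cnih3 at 25.5 ± 0.456 and Gria4 at 23.3 ± 3.00 formed a second group in which neighbours overlapped. Cacng8 followed at 19.5 ± 0.938, apart from Gria4 above and Cacng3 below. Cacng3 at 13.1 ± 0.824 and Gsg1l at 9.64 ± 3.72 overlapped, and Cacng2 was lowest at 3.77 ± 0.669. Per kilobase of coding sequence, Gria2 came first at 581, then Gria1 at 363 and Cnih2 at 278.5, with coefficients of variation of 1.83%, 6.61% and 12.5% over the 3 controls, so the order at the top depended on the length. Lower in the order, Cnih3 at 125 then came before Gria3 at 103, and Gsg1l at 39.1 and Cacng3 at 38.5 before Cacng8 at 36.1.

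The promoters of Cnih2 and Gria4 are shown because these genes had the smallest p in each direction. Each is the 250 bases before the RefSeq start on GRCm38.p6, read 5′ to 3′ on the strand of the gene, with motif matches in capitals.
Cnih2, chr19:5098522-5098771, minus strand: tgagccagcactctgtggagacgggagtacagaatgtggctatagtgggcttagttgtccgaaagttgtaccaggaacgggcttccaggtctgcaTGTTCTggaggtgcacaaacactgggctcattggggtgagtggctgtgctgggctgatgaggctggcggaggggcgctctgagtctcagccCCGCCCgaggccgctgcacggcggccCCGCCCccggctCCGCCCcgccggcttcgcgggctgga
Gria4, chr9:4796235-4796484, minus strand: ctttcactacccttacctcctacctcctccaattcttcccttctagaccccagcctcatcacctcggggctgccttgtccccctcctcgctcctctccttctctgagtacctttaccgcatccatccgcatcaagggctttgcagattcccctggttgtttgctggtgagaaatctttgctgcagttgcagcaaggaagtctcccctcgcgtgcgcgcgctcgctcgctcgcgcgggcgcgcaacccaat
The motifs searched on both strands were the GC box GGGCGG, the glucocorticoid receptor half-site TGTTCT, the cyclic AMP response element TGACGTCA and its half-site TGACG, which lies within it, the TATA box TATAAA and the E-box CACGTG. The Cnih2 window held 3 GC boxes, which appear as CCGCCC on the strand shown, and 1 glucocorticoid receptor half-site 155 bases before the start. Of all 32851 promoter windows of this length, 32.7% held a GC box and 16.1% that half-site. The Gria4 window held none of the letters searched. GC content was 65.6% for Cnih2 and 58.8% for Gria4, against a median of 52.4% over all windows. RefSeq entries for Gria1, Gria3 and Gsg1l were missing.

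Of the other AMPA receptor pathway genes, 49 were listed in the counts and 46 were tested, and none passed by edgeR's quasi-likelihood test. At an unadjusted p under 0.05, 6 of the 46 were higher and 6 lower, where 3.86% and 4.85% of all tested genes were. Control and stress libraries were fully separated for 6 genes higher in stress and 7 lower, where 6.76% and 7.84% of all tested genes were. Their median log2 fold change was 0.091.

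Other proteins found in AMPA receptor complexes had 17 tested genes, with a median log2 fold change of 0.0062. Vwc2l, for a secreted protein found with AMPA receptors, was at 57.3, 52.4 and 66.3 CPM in control replicates 1, 2 and 3 and at 10.6, 30.6 and 23.0 CPM in stress replicates 1, 2 and 3. Its stress libraries were all below its controls. The log2 fold change was -1.46 (SE 0.30), at an adjusted p of 0.215 by edgeR's quasi-likelihood test and 0.0961 by DESeq2. Without stress replicate 1 it was -1.13 (SE 0.14) and passed edgeR's test, with an adjusted p of 0.0159. DESeq2 without that library called it lower too, with an adjusted p of 1.04e-08. Olfm2, for a secreted olfactomedin, was at 37.0, 37.6 and 39.4 CPM in controls and at 13.7, 29.7 and 21.1 CPM in stress. Every stress library lay below every control. The log2 fold change was -0.83 (SE 0.22), at an adjusted p of 0.353 by edgeR's quasi-likelihood test. DESeq2 called it lower, with an adjusted p of 0.0489. In edgeR's fit without stress replicate 1 it was at -0.59. Rap2b, a small GTPase gene, was at 0.28 (SE 0.070) without overlap, and Shisa7, for an auxiliary subunit of the Shisa family, at 0.24 (SE 0.095) with overlap. The related genes Cacng4, Cacng5 and Cacng7, named after their values were seen, were at 0.888, 2.82 and 9.58 CPM per kilobase of merged exons in controls. The groups overlapped for each. Cacng4 was at 2.94 to 3.51 CPM in controls and at 6.21, 4.07 and 2.80 CPM in stress replicates 1, 2 and 3. Cacng5 was at 9.31 to 12.1 CPM in controls and 9.77 to 11.1 CPM in stress. Cacng7 was at 20.4 to 25.1 CPM in controls and 20.1 to 21.9 CPM in stress.

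Among the 8 genes of receptor biogenesis and RNA editing, the median log2 fold change was 0.052. The smallest p belonged to Sacm1l, a phosphoinositide phosphatase gene, at -0.16 (SE 0.069), and to Abhd12, a serine hydrolase gene, at 0.13 (SE 0.067). The groups did not overlap for either, and Sacm1l has exons that overlap Slc6a20b on the opposite strand. Sacm1l was at -0.11 without control replicate 3 and Abhd12 at 0.084 without control replicate 1. Cpt1c and Frrs1l, whose products act on AMPA receptors in the endoplasmic reticulum, were at 0.19 (SE 0.10) and 0.11 (SE 0.077) with overlap. Cpt1c was at 0.29 without stress replicate 1 and 0.11 without stress replicate 3, and Frrs1l at 0.041 without stress replicate 1. Adarb1 encodes the enzyme that edits the Gria2 codon printed above and was chosen after its value was seen. It was at 255, 239 and 221 CPM in control replicates 1, 2 and 3 and at 250, 204 and 197 CPM in stress replicates 1, 2 and 3. These groups overlapped, and the log2 fold change was -0.14 (SE 0.10).

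Of the 19 anchoring and trafficking genes, 16 had positive and 3 negative log2 fold changes, with a median of 0.11, where 7170 of all tested genes were positive and 6888 negative. Nptx2, for a secreted pentraxin that clusters AMPA receptors, was at 9.79, 11.8 and 11.6 CPM in control replicates 1, 2 and 3 and at 14.0, 17.7 and 21.5 CPM in stress replicates 1, 2 and 3. All stress libraries lay above the controls. The log2 fold change was 0.68 (SE 0.18), at an adjusted p of 0.304 by edgeR's quasi-likelihood test and 0.174 by DESeq2. Without stress replicate 1 it was 0.82 (SE 0.14) and passed edgeR's test, with an adjusted p of 0.0421. DESeq2 without that library called it higher too, with an adjusted p of 0.0175. The receptor of the pentraxins, Nptxr, was at 1.17 to 2.78 CPM in controls and 2.83 to 7.47 CPM in stress, and its log2 fold change of 1.20 (SE 0.45) rests on low counts and was 0.72 without stress replicate 3. Nptxr shares exons with Npcd on the same strand, so how counts were split between them is uncertain. Nptx1 was at 0.33 (SE 0.11) with overlap. Dlg1, whose product SAP97 binds GluA1, was at 239, 217 and 227 CPM in controls and 179, 201 and 158 CPM in stress, a log2 fold change of -0.34 (SE 0.093) without overlap.

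Of the 5 family relatives that are not AMPA receptor partners, Cnih1 and Cnih4 were tested, at log2 fold changes of 0.011 (SE 0.085) and 0.10 (SE 0.077). Cnih1 ranged from -0.032 without stress replicate 1 to 0.063 without stress replicate 2. Cacng1 had a count of 0 in every library, which allows up to 0.361 CPM in the smallest library, and Gsg1 and Cacng6 had at most 3 and 7 counts. This limit covers counting error only.

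**Figure D5:**
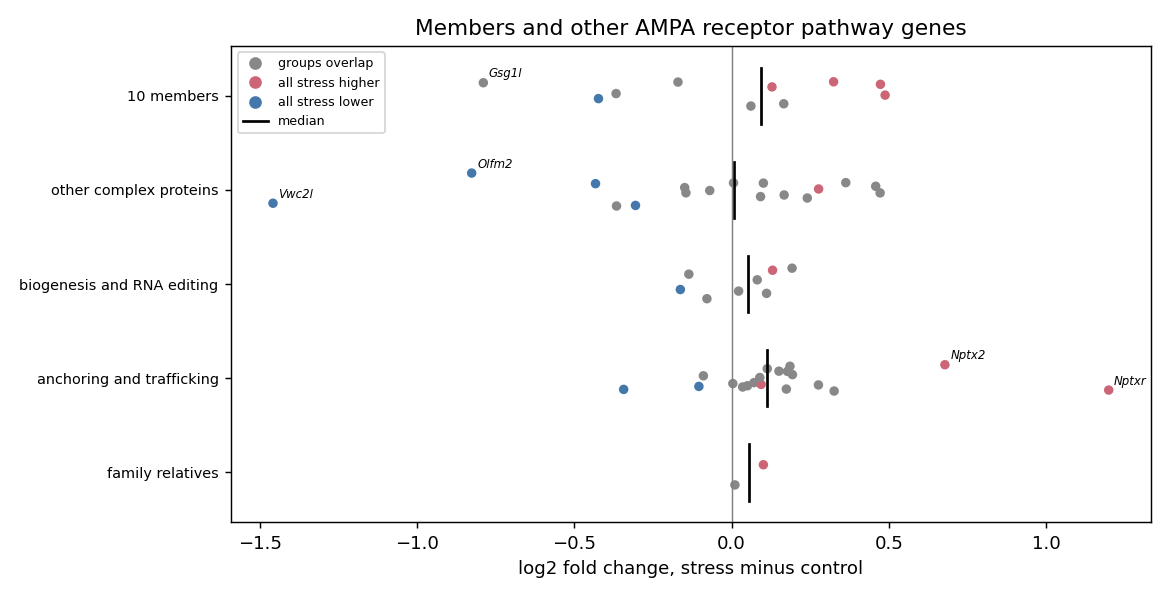
Log2 fold change of stress against control for the 10 genes and for the 46 other tested AMPA receptor pathway genes, by list. Each point is 1 gene, coloured by whether its groups overlapped, points are spread vertically for legibility, and the black line is the median of the list, 0.095 for the 10 genes and 0.0062 to 0.11 for the lists.

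The members did not share 1 pattern over the libraries. Pearson's r of log2 CPM over the 6 libraries was 0.95 between Gria1 and Gria2, 0.91 between Gria1 and Cnih2, 0.92 between Cacng8 and Cnih2, and -0.97 between Gria1 and Gria4. It was 0.076 between Gria1 and Cnih3. These values describe 6 points that share depth and the group difference, and are given without a test. Among 10402 other genes of sufficient level, those close to Cacng8 included Wdr8 and Ksr1, a scaffold of the ERK cascade, each with r = 0.99, and 131 genes had r over 0.9. Those closest to the median of the 10 genes were Nsun7, Bai2, Cog5 and Unc13a, with r = 0.98 each, and 87 genes had r over 0.9 with it. As the members did not share 1 pattern, this median need not follow any 1 of them.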

How the data were processed

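RNA sequencing covered 6 ventral dentate gyrus libraries. The authors deposited 1 table of whole-number counts per library, for 24062 gene symbols. FastQC 0.11.3, Trimmomatic 0.33, TopHat2 2.0.9, edgeR 3.12.0 and HTSeq 0.6.1 appear in the submitters' processing notes, as do GRCm38 and mm10, with no role or order. Annotation and strand options of the counting step are not stated there. Summary rows of the tables were dropped. Of the reads listed, 59.5% to 63.1% were assigned to no gene and 0.211% to 0.253% were ambiguous.

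Counts were scaled by TMM (factors 0.981 to 1.01) and filtered with filterByExpr, which left 14058 genes. The two-sided quasi-likelihood test of edgeR 4.0.16 (R 4.3.3) had group as its single term. P-values were adjusted by Benjamini-Hochberg across those genes, and calls were made at 0.05. SEs are from limma 3.58.1 voom. No library pair agreed within sampling noise (lowest chi-square per degree of freedom 2.97). Lengths, positions and coding sequences are from GENCODE M21 on GRCm38, and promoters from RefSeq on GRCm38.p6, with entries for 7 of the 10 genes.

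The fit was tested on data simulated 3 times from these libraries' 14058 genes, 200 of them changed. It found 58.2% of 1.5-fold, 93.0% of 2-fold and 100% of 4-fold changes and called 0.135% of unchanged genes. The changed genes were drawn only from those above a minimum mean count. No simulated library was made to stand apart as stress replicate 1 did. These rates may therefore not hold for genes of low count or for the real libraries.

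Members and lists were chosen with earlier results of these data known. Per pathway list, the genes named are those past the threshold or else up to 4 of smallest p. Genes that followed the members most closely are also named, 4 for their median and 3 for Cacng8, of which 1 is not reported here. The alternatives were other scalings (relative log expression, upper quartile), no filter or CPM of 1 or more in 3 libraries, DESeq2 1.42.0, limma-voom, a robust fit, a replicate block and leaving out each library. DESeq2 without stress replicate 1 was added after seeing the data.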

Additional observations from a re-analysis of the deposited data

How the results depend on the processing

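The 10 genes kept their direction in 149 of 150 values under the alternatives. The exception was Cnih3, at 0.50 without stress replicate 1 and -0.20 without stress replicate 3. With all 6 libraries 0 of the 10 genes were called by edgeR, with 5 at an unadjusted p under 0.05, DESeq2 called 3 and, without stress replicate 1, 5 (Gria1, Gria4, Cacng8, Cnih2 and Cnih3). Leaving out 1 library gave 0 to 1, the 1 being Cacng8 without stress replicate 1. Of the other pathway genes DESeq2 called 1, and leaving out 1 library gave 0 to 2, Vwc2l and Nptx2 without stress replicate 1. Among the named pathway genes, DESeq2 without that library called Vwc2l, Nptx2 and Olfm2. Over all genes, edgeR called 4 lower and 0 higher, DESeq2 68 and 38, limma-voom 1 lower and the fit with the replicate number as a block 0 lower, and 0 to 30 were lower and 0 to 11 higher with 1 library left out. The median of the 10 genes, 0.095, was 0.045 by limma-voom and -0.048 to 0.13 with 1 library left out, where it was negative without stress replicate 3. Cnih1 was at most 0.063, without stress replicate 2, and turned to -0.0075, -0.012 and -0.032 without control replicate 1, control replicate 2 and stress replicate 1, and to -0.031 by DESeq2 without the last. Deviations from the group means of same-numbered libraries had r = 0.14, -0.0076 and 0.043, and those of differently numbered libraries -0.15 to 0.12. With 3 libraries per group these values cannot decide whether a number marks a shared batch, and the labels do not say. The replicate block called none of the 10 genes. The cause of these differences was not tested.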
